A study of Mus musculus with 40 samples.

Results

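Described here are 40 genes of the secretory pathway and of endoplasmic reticulum (ER) stress, out of 24732 genes listed for each RNA-seq library. They were taken by gene name from the per-library tables of TPM (transcript abundance, reads scaled by gene length and by library total), after suffixes added to some names were removed, and all 40 were found. By role they are 9 chaperones and cochaperones of the Hsp70 and Hsp90 type, 2 lectin chaperones, 4 protein disulphide isomerases, 8 factors of ER-associated degradation, 11 subunits of the translocon, the signal peptidase and the translocon-associated protein (TRAP) complex, 3 subunits of oligosaccharyltransferase and 3 stress transcription factors. All 40 passed the filter on low TPM in every comparison. Of these, 7 (Pdia4, Pdia6, Syvn1, Spcs1, Rpn1, Rpn2 and Ddit3) carried a name suffix with the letters OVL, which the sources used here do not explain. If it marks overlapping genes, reads may be shared and the levels of these genes are uncertain.

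The 28 libraries were made from follicular B cells sorted by FACS from C57BL/6 mice, all with MD4, a transgenic B cell receptor for hen egg lysozyme (HEL). Cd23-cre, which acts in maturing B cells, deleted floxed Ikzf1, the gene of the transcription factor Ikaros. CpG cells had been cultured for 1 day with CpG, which is sensed by the innate receptor Tlr9. They were MD4 Cd23-cre Ikzf1(fl/-) (4 libraries) or MD4 Cd23-cre Ikzf1(fl/+) (4 libraries, so these controls also carry Cre and a floxed allele). With the floxed allele deleted, Cd23-cre fl/+ controls, CpG or naive, keep 1 intact allele, whereas the HEL controls are fl/fl without Cre. Anergic cells (3 libraries) came from mice that also express HEL from the ML5 transgene, and their genotypes were Ikzf1(fl/fl), Ikzf1(fl/+) and Cd23-cre Ikzf1(fl/+). HEL cells were taken 1 day after intravenous HEL from MD4 Cd23-cre Ikzf1(fl/fl) mice (5 libraries, called HEL Cre) or from MD4 Ikzf1(fl/fl) mice without Cre (5 libraries, called HEL), so presence of Cre and loss of Ikaros cannot be told apart there. Naive cells were MD4 Cd23-cre Ikzf1(fl/-) (2 libraries), MD4 Cd23-cre Ikzf1(fl/+) (3 libraries) or MD4 Ikzf1(fl/+) without Cre (2 libraries). The labels give no age, sex, or animal per library, so p-values measure the spread between libraries, which may be technical.

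The first digits of the library numbers in the labels divide the libraries into series 36 (naive fl/- and 2 naive fl/+ libraries), series 49 (CpG) and series 57 (the rest). Whole reads could be recovered from the TPM steps and came to between 12126675 and 25424303 per library. Ikzf1 measured 31.7 to 39.5 TPM in CpG fl/- against 135 to 172 TPM in CpG fl/+ libraries, 60.3 to 79.3 TPM in HEL Cre against 195 to 261 TPM in HEL libraries, and 57.3 to 65.3 TPM in naive fl/- against 120 to 136 TPM in naive fl/+ libraries of series 36. All 10 follicular B cell markers averaged at least 1 TPM in every group, and their sum was 2101 to 3809 TPM over the CpG libraries and 12264 to 18074 TPM elsewhere. Neutrophil markers summed to 21.3 to 83.5 TPM in the naive libraries of series 36, and to at most 0.692 TPM in every library of series 57.

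Proteins bound for the cell surface or for secretion, antibody among them, enter the ER through the Sec61 translocon, are cut by signal peptidase, glycosylated by oligosaccharyltransferase and folded by chaperones and disulphide isomerases, and those that fail to fold are retrotranslocated and degraded. When unfolded protein builds up, the sensors Ire1 (Ern1, which splices Xbp1), Perk (Eif2ak3, which raises translation of Atf4) and Atf6 turn on the unfolded protein response, with Ddit3 (Chop) as a late factor. B cells are known to enlarge this machinery when they become antibody-secreting plasma cells.

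Chaperone genes are known to be induced through the ER stress response element (ERSE), written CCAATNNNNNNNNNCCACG, which is bound by Atf6 with the CCAAT-binding factor NF-Y. Promoter windows of 250 bases before to 50 bases after the start were held for 32 of the 40 members in RefSeq (build GRCm38.p6). They were searched on both strands for exact matches alone, so an element with a changed base in either box was not counted. Ssr2, Hyou1, Spcs3, Derl1, Manf, Atf6, Sec61a1 and Sec11c were not matched. The ERSE was found in 9 of 32 members (28.1%), against 37 of 27025 genes with a window (0.137%). The 10 elements are shown because they mark which chaperone and degradation genes share the motif. Each is printed 5′ to 3′ in its own orientation, with the CCAAT and CCACG boxes in capitals.
Hspa5: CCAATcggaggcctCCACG
Hsp90b1 (outer): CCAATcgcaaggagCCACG
Hsp90b1 (inner): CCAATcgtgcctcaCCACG
Calr: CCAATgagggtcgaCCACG
Canx: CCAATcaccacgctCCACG
Creld2: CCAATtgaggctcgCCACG
Dnajc3: CCAATcagcgccaaCCACG
Pdia6: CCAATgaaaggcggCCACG
Derl3: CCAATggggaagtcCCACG
Syvn1: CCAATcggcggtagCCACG

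The Hspa5 element lies at chr2:34772025-34772043 and begins 65 bases before the start, on the strand of the gene (plus). The Derl3 element lies at chr10:75893242-75893260, begins 156 bases before the start, and reads on the strand opposite to the gene (plus). Hsp90b1, on the minus strand, is the only member found with more than 1 exact match, at chr10:86705638-86705656 and chr10:86705533-86705551. Inexact copies in the other windows were not searched for. The outer one reads with the gene and the inner one against it. Over the 10 elements the distance to the start ran from 44 bases in Syvn1 to 212 bases in the outer Hsp90b1 element. The second form, ERSE-II (ATTGG and CCACG with 1 base between them), was found in 2 of 32 members, Dnajb11 and Herpud1 (6.25%), and in 12 of 27025 genes (0.0444%). The core TGACGTGG of the unfolded protein response element, which is known to be bound by Xbp1, was found in 0 of 32 members and in 0.714% of genes. A match describes the letters in the window and is not evidence of binding. The Hspa5 and Derl3 windows, the most abundant chaperone gene with an element after Calr and the member that moved in most comparisons below, are shown whole on the strand of the gene, with the element boxes in capitals (in Derl3 as the reverse complement, since its element reads on the other strand).
Hspa5, chr2:34771840-34772139: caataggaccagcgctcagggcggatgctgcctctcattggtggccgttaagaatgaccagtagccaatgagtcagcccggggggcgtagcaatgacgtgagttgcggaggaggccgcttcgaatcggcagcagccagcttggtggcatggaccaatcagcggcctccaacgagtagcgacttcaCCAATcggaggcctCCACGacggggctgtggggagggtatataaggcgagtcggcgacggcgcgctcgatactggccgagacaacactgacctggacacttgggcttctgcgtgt
Derl3, chr10:75893148-75893447: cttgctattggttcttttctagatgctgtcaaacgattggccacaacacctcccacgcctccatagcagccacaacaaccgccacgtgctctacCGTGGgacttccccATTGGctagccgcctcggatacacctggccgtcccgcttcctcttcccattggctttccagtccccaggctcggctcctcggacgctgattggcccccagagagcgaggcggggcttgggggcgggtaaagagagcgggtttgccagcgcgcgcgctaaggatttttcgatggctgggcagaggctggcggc

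In naive cells of series 57 the 40 genes covered a wide range of levels. Calr averaged 1472 ± 173 TPM (SD, n = 3), and the next, Hspa5, averaged 351 ± 17.0 TPM (SD, n = 3). From Hsp90b1 at 254 ± 42.7 TPM to Pdia3 at 209 ± 31.1 TPM (SD, n = 3 each), 8 genes followed whose neighbours differed by less than the larger SD of the pair. The lowest were Derl3 at 7.70 ± 1.02 TPM and Sec61g at 4.00 ± 0.276 TPM (SD, n = 3 each). Sec61g rested on 9 to 119 reads per library, and pseudogene copies are annotated for it, so its level is uncertain.

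**Figure D1:**
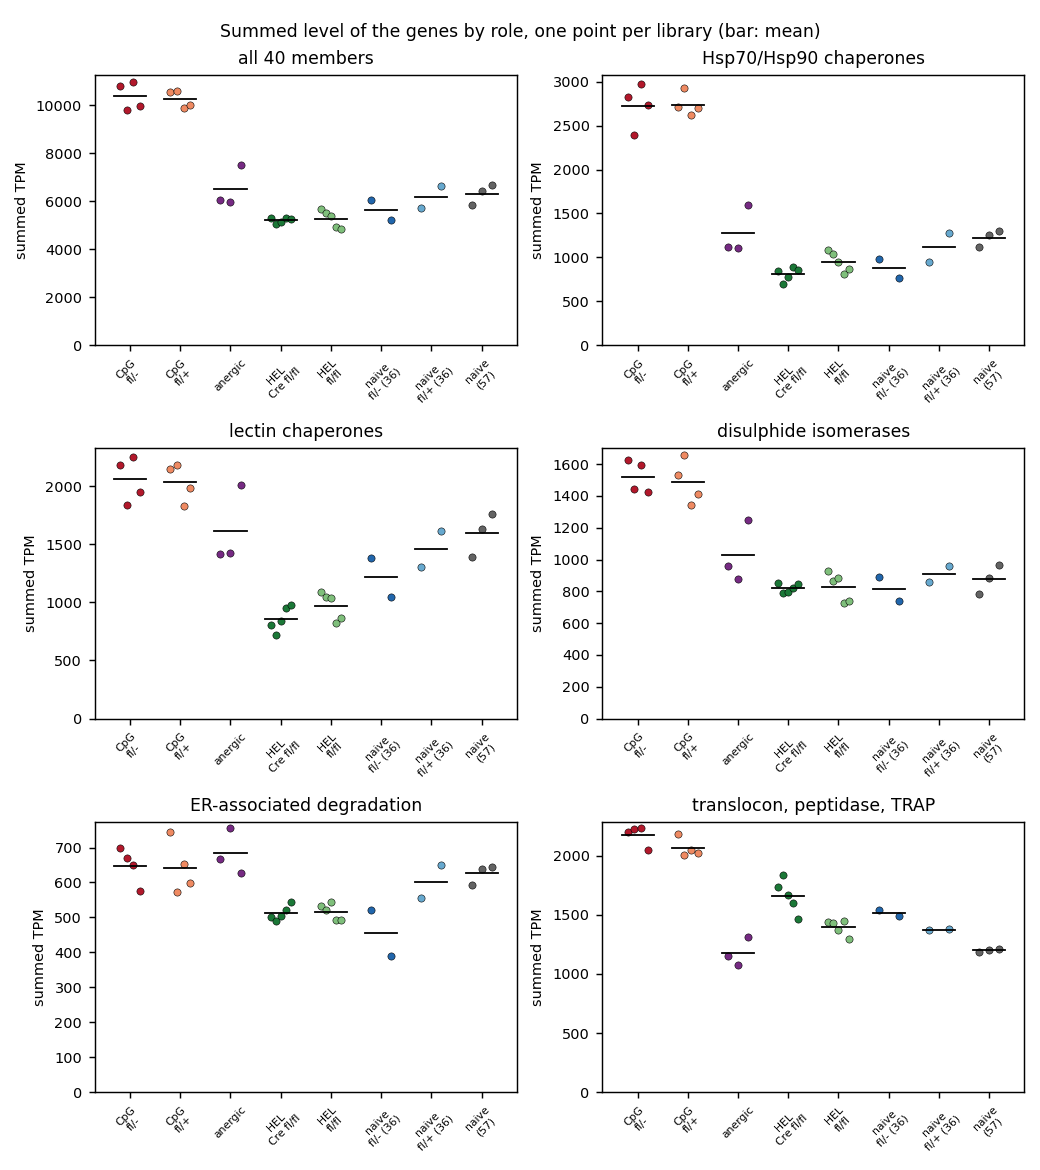
Summed TPM (vertical axes) of all 40 genes and of 5 role groups, with 1 point per library and a bar at the mean, by group of libraries on the horizontal axis. The 8 CpG libraries sum to between 9821 and 10979 TPM over the 40 genes, all above the other libraries, whose highest value is 7515 TPM in an anergic library.

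After CpG the secretory genes were higher as a body. The 40 genes summed to 9877 to 10589 TPM in CpG fl/+ libraries, against 5721 to 6668 TPM in the 3 naive Cd23-cre fl/+ libraries, 2 of series 36 and 1 of series 57, and the groups did not overlap. Of the 40, 30 rose and 1 fell in CpG fl/+ against naive fl/+ cells (limma on log2(TPM + 1), adjusted p under 0.05), where 43.0% of 10527 genes tested rose and 21.0% fell. By role, 7 of 9 Hsp70 and Hsp90 type chaperones rose, 1 of 2 lectin chaperones, 3 of 4 disulphide isomerases, 4 of 8 degradation factors (1 fell), 10 of 11 translocon, peptidase and TRAP subunits, 3 of 3 oligosaccharyltransferase subunits and 2 of 3 transcription factors. Of the calls, 17 were at least 2-fold, as were 36.5% of all genes tested. The median log2 difference was 0.81 over the 40 genes and 0.30 over all genes tested. When libraries were rescaled so that the all-gene median lay near 0 (median-ratio scaling, a shift of -0.31), 21 of the 40 rose, 4 fell and 22 of the 31 calls were kept, where 33.2% of all genes tested rose and 32.6% fell.

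Among the chaperones, Hspa5, the ER Hsp70 also called BiP, measured 704, 872, 827 and 844 TPM in CpG fl/+ libraries, against 240, 380 and 371 TPM in naive fl/+ libraries. Every CpG library lay far above every naive one, and log2(TPM + 1) rose by 1.32 ± 0.17 (SE, adjusted p = 0.000122). Sdf2l1, which works with the ER cochaperone Dnajb11, measured 490, 412, 384 and 397 TPM in CpG fl/+ libraries, against 113, 140 and 132 TPM in naive fl/+ libraries (log2 difference 1.71 ± 0.12, adjusted p = 3.87e-06). Manf and Creld2, both known ER stress-inducible proteins, rose by 1.31 ± 0.11 and 1.42 ± 0.14 on the log2 scale (adjusted p = 9.44e-06 and 2.35e-05). Hsp90b1, the ER Hsp90, averaged 465 ± 76.6 TPM in CpG fl/+ and 225 ± 58.6 TPM in naive fl/+ libraries (SD, n = 4 and 3; log2 difference 1.06 ± 0.19, adjusted p = 0.000838). Calr, the soluble lectin chaperone and the most abundant member, did not pass the test, at 1778 ± 153 TPM in CpG fl/+ and 1444 ± 212 TPM in naive fl/+ libraries (SD, n = 4 and 3; log2 difference 0.31 ± 0.13, adjusted p = 0.0701), whereas its membrane-bound relative Canx rose by 1.16 ± 0.15 (adjusted p = 0.000105).

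The degradation factors included genes called in both directions. Sel1l, the adaptor of the Hrd1 ubiquitin ligase, measured 85.9, 81.4, 75.0 and 78.7 TPM in CpG fl/+ libraries, against 19.5, 22.7 and 30.1 TPM in naive fl/+ libraries, and rose by 1.71 ± 0.15 (log2, adjusted p = 1.28e-05). Syvn1, the Hrd1 ligase itself, measured 163, 112, 136 and 119 TPM in CpG fl/+ libraries, against 139, 170 and 208 TPM in naive fl/+ libraries, and did not pass the test (-0.38 ± 0.17, adjusted p = 0.0813). Herpud1, a membrane factor that recruits the same ligase complex, fell by 0.88 ± 0.15 on the log2 scale (adjusted p = 0.000721). It measured 133, 92.3, 109 and 91.2 TPM in CpG fl/+ libraries, against 179, 218 and 189 TPM in naive fl/+ libraries, without overlap. The mannosidase-like lectin Edem1 rose by 1.44 ± 0.15 (adjusted p = 3.98e-05), and its relative Edem2 did not pass the test (-0.25 ± 0.14, adjusted p = 0.139). Derl3, a derlin of the retrotranslocation channel known for its expression in secretory cells, measured 35.2, 24.1, 35.7 and 28.2 TPM in CpG fl/+ libraries, against 12.1, 7.24 and 7.48 TPM in naive fl/+ libraries, and rose by 1.69 ± 0.22 (adjusted p = 0.000122).

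At the translocon, the TRAP subunits Ssr1, Ssr2, Ssr3 and Ssr4 rose by 1.09 ± 0.13, 0.95 ± 0.10, 1.22 ± 0.10 and 0.60 ± 0.16 on the log2 scale (adjusted p = 6.41e-05, 3.02e-05, 7.48e-06 and 0.00880). Sec61g measured 16.8, 16.1, 17.7 and 18.1 TPM in CpG fl/+ libraries, against 3.66, 1.24 and 3.80 TPM in naive fl/+ libraries (2.30 ± 0.27, adjusted p = 6.64e-05), with the limit given above. Its partners Sec61a1 and Sec61b rose by 0.51 ± 0.11 and 0.43 ± 0.12 (adjusted p = 0.00321 and 0.0115), and both lost the call under median-ratio scaling. Sec11c, a catalytic subunit of signal peptidase, did not pass the test (0.18 ± 0.13, adjusted p = 0.252). The oligosaccharyltransferase subunits Ddost, Rpn1 and Rpn2 rose by 0.55 ± 0.09, 0.46 ± 0.14 and 0.50 ± 0.09 (adjusted p = 0.000669, 0.0200 and 0.000972), and all 3 lost the call under that scaling.

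Of the transcription factors, Atf6 measured 93.1, 106, 120 and 122 TPM in CpG fl/+ libraries, against 19.3, 17.4 and 26.0 TPM in naive fl/+ libraries. As fitted it had the largest log2 difference among the 40 genes in this comparison (2.35 ± 0.16, adjusted p = 3.17e-06), close to Sec61g at 2.30. Under median-ratio scaling that order was lost, with Sec61g at 2.023 and Atf6 at 2.019. Atf4 measured 354, 376, 540 and 427 TPM in CpG fl/+ libraries, against 128, 182 and 236 TPM in naive fl/+ libraries, and rose by 1.24 ± 0.22 (adjusted p = 0.000812). Ddit3 measured 13.4, 21.6, 55.0 and 46.7 TPM in CpG fl/+ libraries, against 37.4, 53.2 and 42.5 TPM in naive fl/+ libraries, and did not pass the test (-0.56 ± 0.43, adjusted p = 0.284). The CpG libraries were divided here into 2 blocks by order of library number, and the labels name no such batch. Replicates 1 and 2 of each genotype form the first block, and replicates 3 and 4 the second. In the plot of CpG libraries by block, the high Ddit3 values are the 2 fl/+ libraries of the second block.

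The same 40 genes in Ikaros-deficient cells gave 31 higher and 1 lower in CpG fl/- against naive fl/- libraries, where 56.3% of 10808 genes tested rose and 19.8% fell. At least 2-fold were 20 of the 40 and 43.6% of all genes tested. The median log2 difference was 0.90 over the 40 genes and 0.56 over all genes. Median-ratio scaling shifted the all-gene median by -0.55 and left 20 higher and 9 lower, with 21 of the 32 calls kept, where 37.2% of all genes tested were higher and 36.4% lower. Sel1l measured 90.9, 84.0, 95.8 and 80.5 TPM in CpG fl/- libraries, against 20.1 and 10.2 TPM in naive fl/- libraries (log2 difference 2.53 ± 0.23, adjusted p = 2.01e-05). Derl3 rose by 2.51 ± 0.19 (adjusted p = 7.52e-06) and Hsp90b1 by 1.78 ± 0.16 (adjusted p = 1.94e-05). Ddit3 was the member that fell, at 20.1, 15.8, 17.5 and 19.97 TPM in CpG fl/- libraries, against 42.2 and 54.2 TPM in naive fl/- libraries (-1.34 ± 0.15, adjusted p = 6.91e-05). Calr rose in this genotype (0.69 ± 0.14, adjusted p = 0.00201) but not after scaling (0.07, adjusted p = 0.624). Whether the CpG difference itself differs between genotypes was not tested.

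In both CpG comparisons the stimulus, the culture and the library series cannot be told apart. Neutrophil markers summed to 0 to 18.4 TPM in CpG fl/- libraries and 0 to 122 TPM in CpG fl/+ libraries, and NK cell markers to 1.45 to 4.66 TPM in all CpG libraries against 25.4 to 42.7 TPM in naive libraries of series 36; their part in the results was not tested. In bulk libraries, fewer cells with a transcript and less transcript per cell cannot be told apart.

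**Figure D2:**
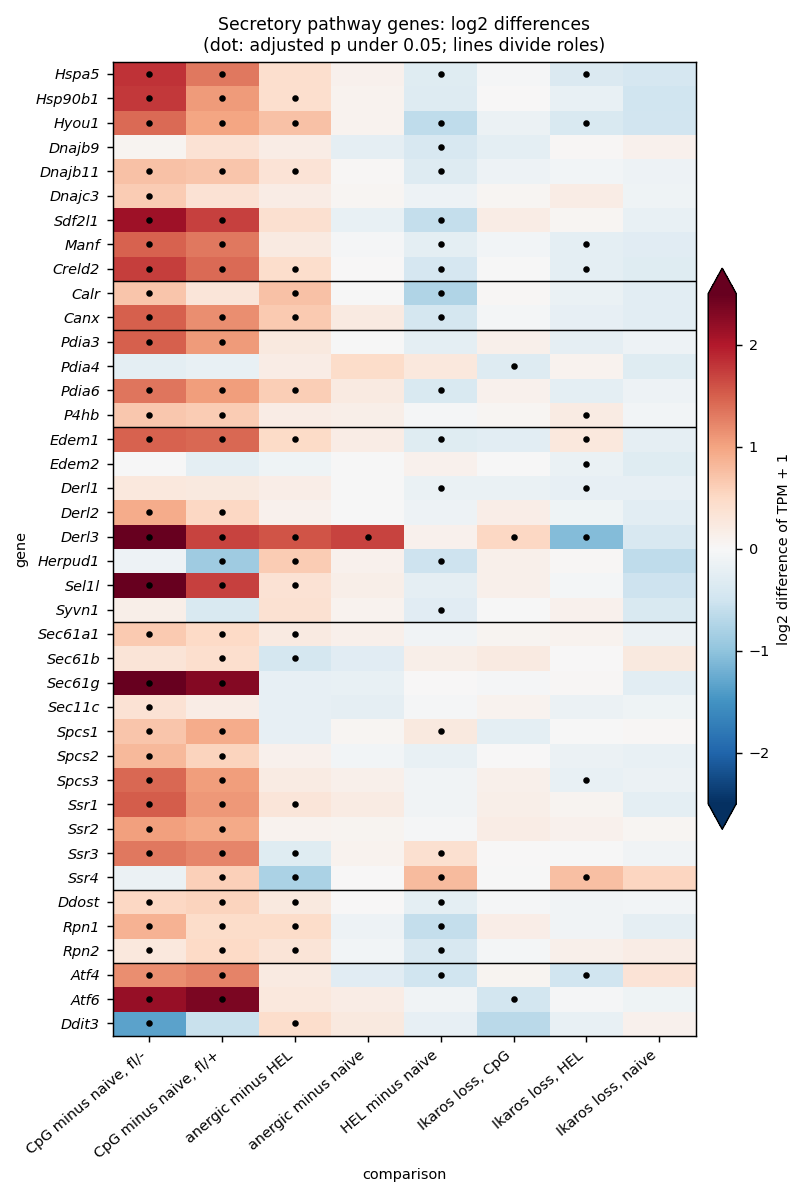
Log2 differences of TPM + 1 (colour; the scale ends at 2.5 in either direction) for the 40 genes in rows, ordered by role, and 8 comparisons in columns; a dot marks an adjusted p under 0.05 (limma). In the 2 CpG columns 31 and 30 genes were called higher, in the HEL column 18 were called lower, and under median-ratio scaling these counts are 20, 21 and 9.

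**Figure D3:**
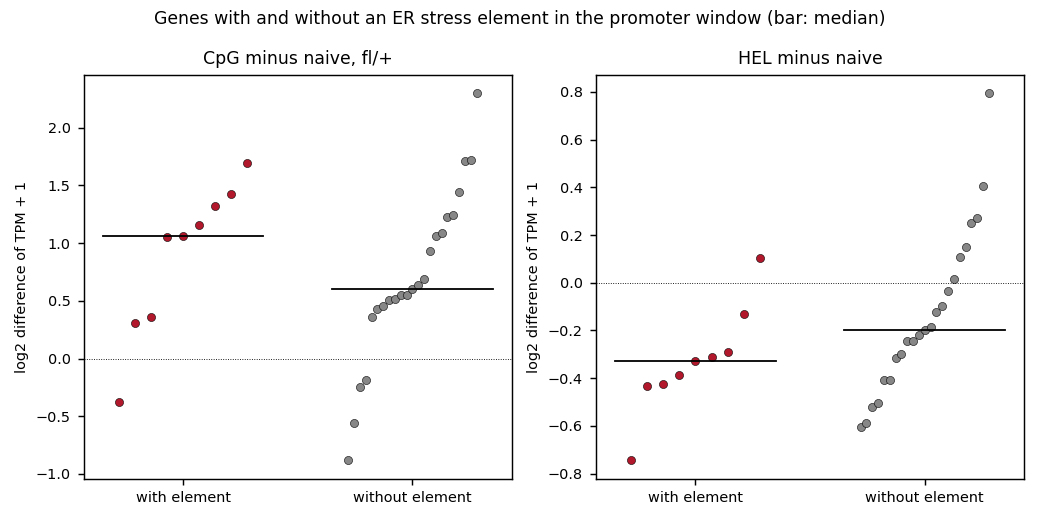
Log2 difference of TPM + 1 (vertical axes) for the 9 genes with an exact ERSE match and the 23 without among the 32 with a promoter window. Each gene is 1 point, with a bar at the median, for CpG against naive fl/+ cells (left) and HEL against naive cells (right). Medians are 1.06 with and 0.60 without the element on the left, and -0.33 with and -0.20 without on the right, and the ranges overlap in both. Dnajb11 and Herpud1, which carry an ERSE-II, are among the 23.

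Set against the elements, 6 of the 9 genes with an exact ERSE match rose after CpG in fl/+ cells, where 43.0% of all genes tested rose and 21.0% fell. The other 3, Calr, Dnajc3 and Syvn1, did not pass the test. Of the 23 without an exact match, 18 rose and 1, Herpud1, fell. Herpud1 and Dnajb11, both counted among the 23, carry an ERSE-II. Log2 differences ran from -0.38 to 1.69 with the element and from -0.88 to 2.30 without it. The genes without an exact match included Sdf2l1 and Sel1l, which rose by 1.71 each.

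Other genes of the pathway were counted in wider lists that hold 131 genes, of which 126 were tested. In CpG fl/+ against naive fl/+ cells 72 were higher and 16 lower as fitted (57.1% and 12.7%, beside 43.0% and 21.0% of all genes tested). The 72 include 1 gene model of Srp54a and the 4 Atf4 targets named next, which averaged under 1 TPM in naive fl/+ cells. Of 16 listed targets of Atf4, 14 were tested, and 4 of these, Chac1, Asns, Atf3 and Ndrg1, averaged under 1 TPM in naive fl/+ cells and passed the filter on low TPM through the CpG libraries, so their rise is tied to the filter. Of the other 10, 9 rose. The largest differences in the list were those of Atf3, Asns, Psat1 and Chac1. Psat1, a serine biosynthesis enzyme not tied to the filter, rose by 3.80 ± 0.28 (log2, adjusted p = 4.51e-06). The others are tied to the filter and are given as levels and differences alone. Atf3, a stress transcription factor, averaged 154 ± 37.3 TPM in CpG fl/+ and 0.501 ± 0.271 TPM in naive fl/+ libraries (SD, n = 4 and 3, log2 difference 6.67 ± 0.22). The asparagine synthetase Asns differed by 4.51 ± 0.45 and the glutathione-degrading enzyme Chac1 by 3.22 ± 0.52. Among 12 sensors and regulators of the unfolded protein response, 3 rose and 3 fell, with Eif2ak3 (Perk) at -1.67 ± 0.22 (adjusted p = 0.000160), the ER membrane factor Creb3l2 at -1.13 ± 0.23 (adjusted p = 0.00184) and Mbtps2, a protease that cuts Atf6, at 1.08 ± 0.21 (adjusted p = 0.00165). The oxidase Ero1l (1.74 ± 0.18, adjusted p = 3.62e-05), the peroxidase Prdx4 (1.49 ± 0.17, adjusted p = 4.87e-05), Vcp, the segregase of ER-associated degradation (1.98 ± 0.10, adjusted p = 8.83e-07) and its partner Rad23b (1.57 ± 0.11, adjusted p = 3.59e-06) rose as well.

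**Figure D4:**
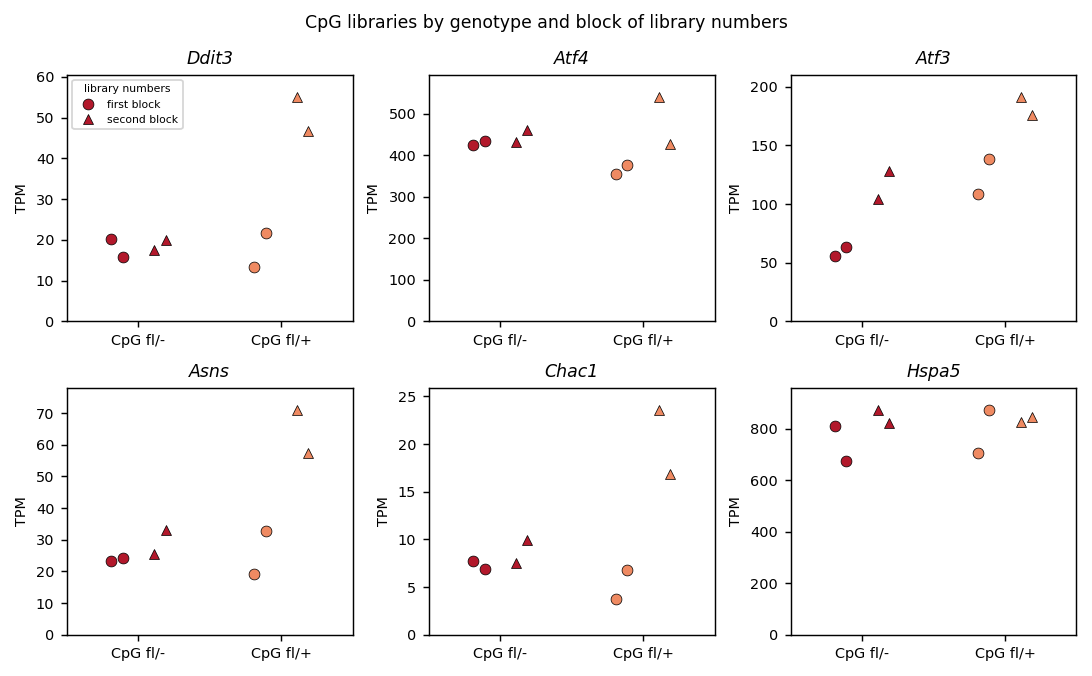
TPM (vertical axes) of 6 genes in the CpG libraries, fl/- left and fl/+ right. Circles mark the first and triangles the second block of library numbers, 2 libraries of each genotype per block. The blocks were set here and are not named in the labels. In the fl/+ group Ddit3, Asns and Chac1 are higher in the 2 second-block libraries than in the 2 first-block libraries, and Hspa5 is between 677 and 872 TPM in all 8.

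By these blocks, which were set here and are not a batch named in the labels, the CpG fl/+ libraries differed in the Atf4 targets Asns and Chac1. Asns measured 23.4, 24.1, 25.5 and 32.9 TPM in CpG fl/- libraries, and 19.2, 32.6, 70.9 and 57.4 TPM in CpG fl/+ libraries, the last 2 from the second block. Chac1 showed the same order, with 7.77, 6.90, 7.57 and 9.92 TPM in CpG fl/- libraries and 3.72, 6.83, 23.5 and 16.9 TPM in CpG fl/+ libraries. The second-block fl/+ libraries also had the higher neutrophil marker sums of their genotype, 14.8 and 122 TPM against 0 and 0.206 TPM, and the part of this in the results was not tested. Without them, 28 of the 40 genes rose and 2 fell in CpG fl/+ against naive fl/+ cells.

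In HEL cells without Cre, lower calls outnumbered higher ones, among the 40 genes and among all genes alike. Of the 40, 3 rose and 18 fell in HEL against the 3 naive libraries of series 57 (fl/+, 1 with Cre), where 9.92% of 10448 genes tested rose and 38.1% fell, so the members' counts lay near the shares of all genes. The fall took in 7 of 9 Hsp70 and Hsp90 type chaperones, 2 of 2 lectin chaperones, 1 of 4 disulphide isomerases, 4 of 8 degradation factors, 3 of 3 oligosaccharyltransferase subunits and 1 of 3 transcription factors, while the 3 that rose, Spcs1, Ssr3 and Ssr4, belong to signal peptidase and TRAP. The median log2 difference was -0.21 over the 40 genes and -0.16 over all genes. Under median-ratio scaling, which shifted the all-gene median by 0.16, 7 rose and 9 fell (17.5% and 22.5%, beside 2091 and 2108 of the 10448 genes tested, similar shares), and 12 of the 21 calls were kept: Hyou1, Sdf2l1, Creld2, Calr, Canx, Herpud1, Rpn1, Rpn2 and Atf4 lower, and Spcs1, Ssr3 and Ssr4 higher. Without 1 naive library the count of lower genes was 10 (without the Cd23-cre fl/+ library) or 11 (without the second fl/+ library that lacks Cre).

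Calr measured 984, 948, 935, 749 and 778 TPM in HEL libraries, against 1283, 1509 and 1623 TPM in naive libraries. Each HEL library was below each naive one, and the log2 difference was -0.74 ± 0.11 (adjusted p = 0.000436). Hyou1, the ER exchange factor for Hspa5, measured 95.0, 88.5, 91.4, 74.5 and 79.2 TPM in HEL libraries, against 117, 141 and 144 TPM in naive libraries (-0.64 ± 0.10, adjusted p = 0.000521). Rpn1 fell by 0.60 ± 0.07 (adjusted p = 0.000157), Sdf2l1 by 0.59 ± 0.13 (adjusted p = 0.00482) and Herpud1 by 0.52 ± 0.06 (adjusted p = 0.000179), all on the log2 scale. Atf4 measured 156, 175, 153, 194 and 187 TPM in HEL libraries, against 236, 245 and 253 TPM in naive libraries (-0.50 ± 0.08, adjusted p = 0.000898).

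Hspa5 itself was lower by a smaller amount (-0.31 ± 0.10, adjusted p = 0.0215), and that call was lost under scaling (-0.14, adjusted p = 0.296). Hsp90b1, Atf6 and Ddit3 did not pass the test (-0.33, -0.09 and -0.20; adjusted p = 0.0767, 0.399 and 0.163). Against the trend, Ssr4 measured 398, 433, 354, 450 and 342 TPM in HEL libraries and 214, 221 and 243 TPM in naive libraries, and rose by 0.80 ± 0.10 (adjusted p = 0.000142). Ssr3 rose by 0.40 ± 0.07 (adjusted p = 0.000876), while Ssr1 and Ssr2, of the same complex, did not pass the test (-0.10 and -0.03). Of 122 wider pathway genes tested, 11 rose and 51 fell (9.02% and 41.8%, near the shares of all genes), among them 7 of 12 unfolded protein response genes that fell: Eif2ak3 at -0.62 ± 0.12 (adjusted p = 0.00228), Ern1 at -0.49 ± 0.11 (adjusted p = 0.00478) and Xbp1 at -0.49 ± 0.09 (adjusted p = 0.00130) are 3 of them.

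Anergic cells, which meet their antigen throughout life, differed from naive cells of the same library series in 1 of the 40 genes. Derl3 measured 23.8, 23.4 and 34.4 TPM in anergic libraries, against 6.80, 8.81 and 7.48 TPM in naive libraries. Every anergic library was above every naive one, and log2(TPM + 1) rose by 1.68 ± 0.17 (adjusted p = 0.00107), where 4.48% of 10519 genes tested rose and 2.89% fell. The call held with each library left out in turn, with differences of 1.51 to 1.77. At an unadjusted p under 0.05 there were 5 members, the others being Pdia4, Sec61b, Atf4 and Ddit3. Hspa5 measured 330, 316 and 512 TPM in anergic libraries, against 338, 345 and 371 TPM in naive libraries, so 1 anergic library, of the genotype with Cre, lay above and the other 2 below all naive ones (0.10 ± 0.18, adjusted p = 0.787). Calr averaged 1471 ± 324 TPM in anergic and 1472 ± 173 TPM in naive libraries (SD, n = 3 each; adjusted p = 0.971).

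The wider lists gave 7 genes higher and 3 lower of 122 tested, against naive cells (5.74% and 2.46%, near the 4.48% and 2.89% of all genes tested). Of 11 tested Atf4 targets, 5 rose and 1 fell. One of them, the stress-responsive gene Ndrg1, passed the filter on low TPM through the anergic libraries, so its rise is tied to the filter. Of the other 10, 4 rose and 1 fell. Ndrg1 averaged 40.8 ± 15.6 TPM in anergic and 0.899 ± 0.284 TPM in naive libraries (SD, n = 3 each, log2 difference 4.41 ± 0.24). Psat1 rose by 1.04 ± 0.20 (adjusted p = 0.0190), and Phgdh, of the same serine pathway, by 0.80 ± 0.12 (adjusted p = 0.00655). Cebpb, a transcription factor, fell by 0.98 ± 0.22 (adjusted p = 0.0328). Bcl2l11, a cell death gene, rose by 1.28 ± 0.15 (adjusted p = 0.00197). The ER prolyl isomerase Fkbp11 fell by 1.42 ± 0.12 (adjusted p = 0.000489), Tusc3, an oligosaccharyltransferase subunit, rose by 0.47 ± 0.10 (adjusted p = 0.0246), and the vesicle coat gene Sec24d fell by 0.60 ± 0.14 (adjusted p = 0.0341). Plasma cell markers summed to 129 to 142 TPM in anergic and 78.1 to 78.7 TPM in naive libraries. On average 5 of 9 reached at least 1 TPM in anergic and 4 of 9 in naive cells. Of the 5 plasma cell markers tested, 3 were called higher and 0 lower in anergic cells (median log2 difference 0.77), beside 4.48% and 2.89% of all genes tested. Of these markers Sdc1 measured 8.62, 14.8 and 12.6 TPM in anergic libraries, against 0.330, 0.330 and 0.404 TPM in naive libraries, while Tnfrsf17 was listed at 0 in all 3 anergic libraries and Igj was at 0.674 to 2.27 TPM in anergic and 1.23 to 4.85 TPM in naive libraries. The part of plasma cells in the Derl3 result was not tested.

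Against HEL cells, anergic cells had 17 of the 40 genes higher and 3 lower, where 36.8% of 10491 genes tested were higher and 5.39% lower, near the members' 42.5% and 7.50%. This comparison shares its anergic libraries with anergic against naive cells and its HEL libraries with HEL against naive cells. Median-ratio scaling, which shifted the all-gene median by -0.22, left 5 higher and 6 lower (12.5% and 15.0%, beside 11.1% and 12.8% of all genes tested) and kept 8 of the 20 calls: Hyou1, Calr, Canx, Derl3 and Herpud1 higher, and Sec61b, Ssr3 and Ssr4 lower. Hyou1 measured 124, 149 and 156 TPM in anergic libraries, against 95.0, 88.5, 91.4, 74.5 and 79.2 TPM in HEL libraries (log2 difference 0.73 ± 0.11, adjusted p = 0.00102). Calr measured 1274, 1295 and 1845 TPM in anergic libraries, against 749 to 984 TPM in HEL libraries (0.73 ± 0.14, adjusted p = 0.00346). Derl3 was higher by 1.58 ± 0.22 (adjusted p = 0.000747). Ssr4 measured 222, 205 and 258 TPM in anergic libraries, below every HEL library (-0.79 ± 0.11, adjusted p = 0.000915).

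**Figure D5:**
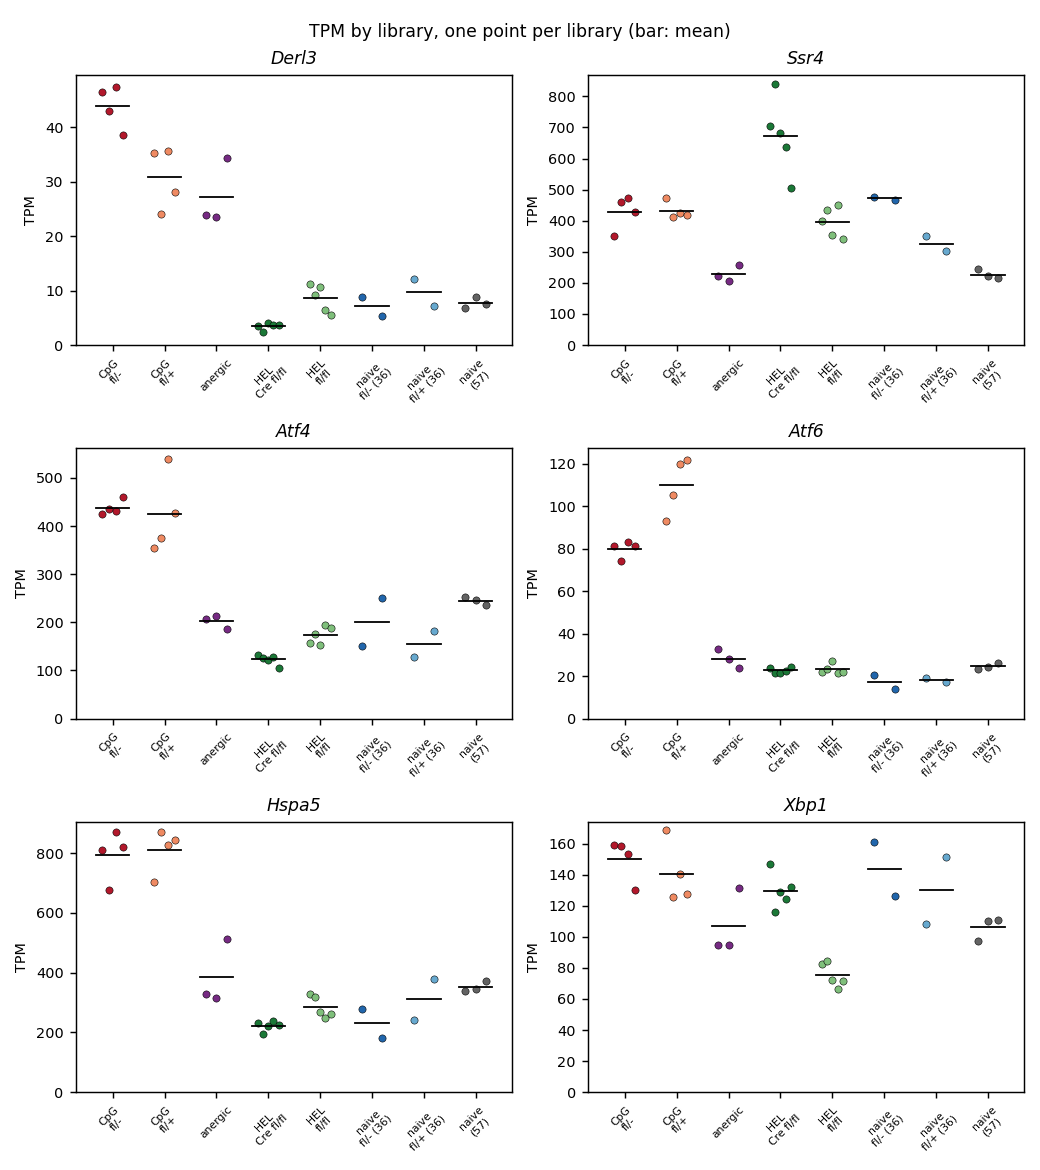
TPM (vertical axes) of 5 members and of Xbp1, with 1 point per library and a bar at the mean, by group. Derl3 lies between 2.44 and 4.05 TPM in HEL Cre libraries, below every other library, and Ssr4 lies between 506 and 839 TPM there, above every other library.

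Loss of Ikaros under HEL went with a change in 12 of the 40 genes, 3 higher and 9 lower, where 12.9% of 10258 genes tested were higher and 24.1% lower, so the count of members was near or below that of all genes. Derl3 measured 3.47, 2.44, 4.05, 3.59 and 3.65 TPM in HEL Cre libraries, against 11.2, 9.14, 10.6, 6.43 and 5.49 TPM in HEL libraries. The lowest HEL library was above the highest HEL Cre library, and the log2 difference was -1.08 ± 0.17 (adjusted p = 0.000302). It was the only member of the 12 whose change reached 2-fold, as 3.27% of all genes tested did. Ssr4 measured 704, 839, 682, 638 and 506 TPM in HEL Cre libraries, against 398, 433, 354, 450 and 342 TPM in HEL libraries, again without overlap (0.76 ± 0.12, adjusted p = 0.000263). Atf4 measured 133, 125, 121, 129 and 106 TPM in HEL Cre libraries, against 156, 175, 153, 194 and 187 TPM in HEL libraries (-0.49 ± 0.08, adjusted p = 0.000367).

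Of the chaperones, Hspa5 measured 231, 196, 221, 237 and 225 TPM in HEL Cre libraries, against 328, 320, 267, 249 and 260 TPM in HEL libraries, and fell by 0.35 ± 0.08 on the log2 scale (adjusted p = 0.00494). Hyou1 fell by 0.38 ± 0.09 (adjusted p = 0.00384). Both groups of values were without overlap. Hsp90b1 and Calr did not pass the test (-0.20 ± 0.12 and -0.17 ± 0.10; adjusted p = 0.217 and 0.191), nor did Atf6 and Ddit3 (-0.02 and -0.18; adjusted p = 0.823 and 0.233). P4hb, the founding disulphide isomerase, rose by 0.21 ± 0.06 (adjusted p = 0.00948), and Derl1 fell by 0.21 ± 0.05 (adjusted p = 0.00313). These 7 named calls held in every alternative run, and Manf, Creld2, Edem2 and Spcs3 lost theirs under median-ratio scaling, which gave 7 higher and 5 lower (17.5% and 12.5%, beside 17.7% and 16.0% of all genes tested). Myeloid markers summed to 77.2 to 104 TPM in HEL Cre and 16.9 to 61.7 TPM in HEL libraries, with 5 of 8 averaging at least 1 TPM in HEL Cre and 4 of 8 in HEL cells. Follicular B cell markers summed to 12264 to 13789 TPM in HEL Cre and 14834 to 15889 TPM in HEL libraries, with 1 of 10 called higher and 5 called lower. NK cell markers summed to 4.77 to 8.95 TPM in HEL Cre and 9.92 to 12.9 TPM in HEL libraries, with 1 of 6 averaging at least 1 TPM in either group. The part of these marker differences in the results was not tested.

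Of 12 sensors and regulators of the unfolded protein response, 3 rose, 2 fell and 7 were not called. Xbp1, the transcription factor of the Ire1 arm, measured 147, 116, 129, 125 and 132 TPM in HEL Cre libraries, against 82.7, 84.6, 71.9, 66.7 and 71.9 TPM in HEL libraries (0.77 ± 0.08, adjusted p = 7.72e-06). Creb3l2 rose by 1.30 ± 0.10 (adjusted p = 6.48e-07) and Eif2ak3 by 0.67 ± 0.07 (adjusted p = 1.06e-05), while Ppp1r15a, a phosphatase subunit that ends the Perk signal, fell by 0.29 ± 0.10 (adjusted p = 0.0457). TPM counts reads over a whole gene, so spliced and unspliced Xbp1 were not separated. Of 11 tested Atf4 targets, 1 rose and 6 fell: Ndrg1 rose by 1.99 ± 0.19 (adjusted p = 3.90e-06), and the amino acid transporter Slc7a5 fell by 0.89 ± 0.14 (adjusted p = 0.000303), Phgdh by 0.74 ± 0.06 (adjusted p = 5.80e-07) and Cebpb by 0.73 ± 0.17 (adjusted p = 0.00528). The isomerases Fkbp11 and Fkbp2 fell by 1.18 ± 0.20 and 0.33 ± 0.09 (adjusted p = 0.000443 and 0.00986), Txndc5, a disulphide isomerase, fell by 0.52 ± 0.08 (adjusted p = 0.000260), the glycosylation subunit Stt3b fell by 0.33 ± 0.07 (adjusted p = 0.00189) and the cargo receptor Tmed3 rose by 0.66 ± 0.07 (adjusted p = 1.17e-05). Over the wider lists 10 of 122 genes tested rose and 31 fell (8.20% and 25.4%), below and near the 12.9% and 24.1% of all genes tested.

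Loss of Ikaros under CpG went with a change in 3 of the 40 genes, 1 higher and 2 lower, where 9.14% of 10386 genes tested were higher and 5.80% lower. The 40 genes summed to 9821 to 10979 TPM in CpG fl/- and 9877 to 10589 TPM in CpG fl/+ libraries. Derl3 measured 46.5, 42.9, 47.4 and 38.5 TPM in CpG fl/- libraries, against 35.2, 24.1, 35.7 and 28.2 TPM in CpG fl/+ libraries, without overlap (log2 difference 0.51 ± 0.13, adjusted p = 0.0333). Atf6 measured 81.2, 74.0, 82.999 and 81.5 TPM in CpG fl/- libraries, against 93.1, 106, 120 and 122 TPM in CpG fl/+ libraries (-0.45 ± 0.09, adjusted p = 0.0139). Pdia4, a disulphide isomerase, averaged 182 ± 14.8 TPM in CpG fl/- and 229 ± 13.1 TPM in CpG fl/+ libraries (SD, n = 4 each; -0.33 ± 0.08, adjusted p = 0.0221). Ddit3 measured 20.1, 15.8, 17.5 and 19.97 TPM in CpG fl/- libraries, within the range of 13.4 to 55.0 TPM in CpG fl/+ libraries (-0.67 ± 0.39, adjusted p = 0.282). Hspa5, Hsp90b1, Calr and Atf4 differed by -0.03, 0.02, 0.02 and 0.06, and none passed the test (adjusted p = 0.860, 0.946, 0.893 and 0.762).

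The 3 calls depended on single libraries to different degrees. Derl3 lost its call without fl/- library 1, 2 or 3 or fl/+ library 2 or 4, 5 of 8 fits with differences of 0.40 to 0.58 over all 8. Pdia4 lost its call without fl/- library 2 or 4 or fl/+ library 4, 3 of 8 fits, with differences of -0.37 to -0.28. Without both second-block fl/+ libraries, 0 of the 40 genes were called by limma (Derl3 0.57, adjusted p = 0.0802; Pdia4 -0.38, adjusted p = 0.0667), while Atf6 kept its call in all 8 but not in that fit (-0.31, adjusted p = 0.105), where the Ddit3 difference was 0.09. Of 126 wider pathway genes tested 4 rose and 5 fell (3.17% and 3.97%, below the 9.14% and 5.80% of all genes tested). Fkbp11 measured 16.6, 18.2, 25.5 and 24.1 TPM in CpG fl/- libraries, against 11.5, 8.04, 6.82 and 5.86 TPM in CpG fl/+ libraries (1.30 ± 0.20, adjusted p = 0.00367). Ndrg1 rose by 1.13 ± 0.20 (adjusted p = 0.00599), Fkbp2 by 0.30 ± 0.08 (adjusted p = 0.0366) and Phgdh by 0.27 ± 0.06 (adjusted p = 0.0206), and Sesn2, a stress-induced inhibitor of growth signalling, fell by 0.72 ± 0.18 (adjusted p = 0.0265). Sec16a, which marks the sites where cargo leaves the ER, fell by 0.28 ± 0.08 (adjusted p = 0.0433). Plasma cell markers summed to 52.3 to 74.6 TPM in CpG fl/- and 45.4 to 93.4 TPM in CpG fl/+ libraries, with overlap, and of 5 tested 2 were higher and 1 lower (median log2 difference -0.17). Among those that rose, Sdc1 measured 7.17 to 10.1 TPM in CpG fl/- and 1.71 to 2.34 TPM in CpG fl/+ libraries. Tnfrsf17 was listed at 0 in all 4 CpG fl/- libraries. Of 10 follicular B cell markers, 0 were called higher and 7 lower in CpG fl/- cells (median log2 difference -0.43). The 1 NK cell marker tested was lower (-0.72). The part of plasma cells and of the other marker differences in these results was not tested.

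In naive cells loss of Ikaros called 0 of the 40 genes by limma and 0 by voom on recovered reads, with 3 at an unadjusted p under 0.05, Hsp90b1, Herpud1 and Ssr4, where 2 of all 10053 genes tested (0.0199%) passed. Ssr4 measured 477 and 468 TPM in naive fl/- libraries, against 350 and 303 TPM in naive fl/+ libraries of series 36 (0.53 ± 0.14, adjusted p = 0.219). Herpud1 measured 145 and 110 TPM in naive fl/- libraries, against 179 and 218 TPM in naive fl/+ libraries (-0.64 ± 0.18, adjusted p = 0.287). Hspa5 overlapped between the groups, with 278 and 182 TPM in naive fl/- libraries and 240 and 380 TPM in naive fl/+ libraries (-0.42 ± 0.25, adjusted p = 0.656). With 2 libraries per group, differences of this size did not reach the threshold.

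Whether loss of Ikaros went with other differences under CpG than under HEL was tested in 1 fit over the 4 groups, and 7 of the 40 genes differed, 3 with a higher and 4 with a lower difference under CpG, where 15.2% and 7.19% of 11050 genes did. Derl3 had the widest gap: its difference with Ikaros loss was 1.59 ± 0.24 higher under CpG than under HEL on the log2 scale (adjusted p = 0.000183), since it was higher in CpG fl/- than in CpG fl/+ libraries and lower in HEL Cre than in HEL libraries. Ssr4 gave -0.77 ± 0.17 (adjusted p = 0.00390), Atf4 0.55 ± 0.15 (adjusted p = 0.0121), Edem1 -0.53 ± 0.15 (adjusted p = 0.0199) and Atf6 -0.43 ± 0.12 (adjusted p = 0.0154). Pdia4 and Derl2, another derlin, stood close to the threshold (-0.42 ± 0.14 and 0.27 ± 0.09; adjusted p = 0.0396 and 0.0464), and lost their calls in 11 and 13 of 18 fits that left out a library. Between the 2 settings the Ikzf1 genotypes, the presence of Cre in the controls, the way of stimulation and the library series also differ. These cannot be told apart from the stimulus.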

How the data were processed

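RNA of FACS-sorted cells was extracted with the Rneasy Plus Mini Kit and mRNA was selected with Dynabeads, per the labels' protocols. Each of 28 libraries had 1 table of TPM values for 24732 genes, deposited by the authors without pooling. TopHat 1.4.1, Bowtie, featureCounts 1.5.0, SAMtools 1.4, deepTools 3.0.1 and build mm9 are named in the submitters' processing notes, and the annotation and strand setting are not given in the sources used here. Of the 40 samples in the labels, 12 of other assays were not analysed here.

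Groups came from the labels. Genes with at least 1 TPM in as many libraries as the smaller group (at least 4 libraries for the difference between settings) entered the test. Values were put on the log2(TPM + 1) scale and fitted by limma (version 3.58.1, R version 4.3.3) with its mean-variance trend option, and p-values were adjusted by Benjamini-Hochberg over every gene tested, threshold 0.05. The pseudocount understates changes of low genes, and errors beside differences are standard errors. The deposited TPM values fell on steps of whole reads for 17368 of 17368 genes above 0 in more than 1 library (tolerance 0.01), and limma's voom on those reads was an alternative, with pseudocount 0.1, no filter, median-ratio scaling, other naive libraries and each library left out; leaving out the second-block fl/+ libraries was added after the data were seen. Comparisons share libraries: HEL and anergic cells share the naive ones, both HEL comparisons and anergic against HEL share the HEL ones, and CpG comparisons share the CpG ones. The members and the wider lists were chosen with earlier results of these data known. All members could be named; full values were given for up to 6 called members with the largest log2 differences and 6 with the smallest in each comparison, and for Hspa5, Hsp90b1, Calr, Atf4, Atf6 and Ddit3; each wider list gave up to 4 called genes by size of difference. The tests were run on simulated reads in which few genes changed and no shift over all genes was set. Since the CpG comparisons differ from that setting, the check does not cover them.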

Additional observations from a re-analysis of the deposited data

Results flagged for a closer look

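Single libraries that lay far from the rest of their group were looked for with Dixon's test in 296 groups of values from 74 genes, and 10 were found; chance alone flags about 1 group in 20. Among the members, Manf measured 438.9 TPM in CpG fl/+ library 2, where the others measured 401 to 405 TPM, and Ssr2 measured 359.6 TPM in CpG fl/- library 2, where the others measured 390 to 392 TPM. HEL Cre library 5 was low for Edem2 (53.8 TPM, others 56.7 to 57.7 TPM) and for Sec11c (165 TPM, others 188 to 195 TPM), and high for Ndrg1 (13.2 TPM, others 6.37 to 7.90 TPM) and Chac1 (0.212 TPM, others 0.0436 to 0.0628 TPM). Phgdh measured 239 TPM in CpG fl/- library 2 (others 225 to 227 TPM), Fkbp2 91.2 TPM in HEL library 3 without Cre (others 80.3 to 83.5 TPM), Tmed3 59.3 TPM in CpG fl/+ library 4 (others 50.6 to 51.7 TPM) and Sec24d 6.66 TPM in CpG fl/+ library 1 (others 3.29 to 3.74 TPM).

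The difference with Ikaros loss was not the same under CpG and under HEL, by the test of that difference in limma, for 31 genes, 7 of the 40 members and 24 of the wider lists. Of the members, 3 were higher and 4 lower under CpG. Of 126 wider genes tested, 11.1% were higher and 7.94% lower. Among all 11050 genes tested these shares were 15.2% and 7.19%, so the wider lists lay below and near them. Of the 24, 11 are among the wider genes named here (those with the largest called differences of their list in some comparison), and the other 13 are not listed. As log2 differences under CpG minus under HEL, the 7 members were Derl3 (1.59), Atf4 (0.55), Derl2 (0.27), Pdia4 (-0.42), Atf6 (-0.43), Edem1 (-0.53) and Ssr4 (-0.77). Of the 11 wider genes, Fkbp11 (2.48), Phgdh (1.01), Slc7a5 (0.77), Fkbp2 (0.63) and Txndc5 (0.57) were higher under CpG, and Creb3l2 (-1.24), Sesn2 (-0.89), Ndrg1 (-0.86), Xbp1 (-0.67), Eif2ak3 (-0.64) and Tmed3 (-0.52) were lower.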

How the results depend on the processing

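Each comparison was refitted under the alternatives given with the methods. Under median-ratio scaling and under voom on recovered reads, the members called in HEL Cre against HEL cells were 7 and 7 higher and 5 and 5 lower; in HEL against naive cells 7 and 7 higher and 9 and 9 lower; in anergic against naive cells 1 and 1 lower; in anergic against HEL cells 5 and 5 higher and 6 and 6 lower, with 2499 and 2584 genes called in all; in CpG against naive fl/+ cells 4 and 4 lower; and in CpG against naive fl/- cells 20 and 20 higher and 9 and 9 lower. Signs turned under those settings for P4hb (0.14 and 0.14) and Derl1 (0.0079 and 0.0080) in HEL against naive cells, for Sec61a1 (-0.025 and -0.025) in anergic against HEL cells, and in CpG against naive fl/- cells for Dnajb9 (-0.53 and -0.54), Derl1 (-0.36 and -0.36), Syvn1 (-0.48 and -0.48), Sec11c (-0.27 and -0.27), Ddost (-0.10 and -0.10) and Rpn2 (-0.35 and -0.35). Naive cells gave 0 genes with pseudocount 0.1, 0 without the filter, 17 with scaling and 58 with voom, for 2 as reported. Without the second-block fl/+ libraries, an alternative chosen after seeing the data, Ikaros loss under CpG called 876 genes and 0 members higher and 0 lower; 2 members were lower in CpG against naive fl/+ cells, also with all 5 naive fl/+ libraries (2), and 2 were lower in the difference between CpG and HEL. With each library left out in turn, the counts ran over these ranges: Ikaros loss under HEL, 3262 to 3764 genes, 2 to 4 members higher and 6 to 12 lower; Ikaros loss under CpG, 909 to 1907 genes, 0 to 2 higher and 1 to 3 lower; naive cells, 0 to 0 genes; HEL against naive cells, 10 to 19 lower; anergic against naive cells, 323 to 1153 genes, 0 to 1 lower; anergic against HEL cells, 2800 to 5292 genes, 12 to 18 higher; CpG against naive cells, 1 to 2 lower in either genotype; the difference between CpG and HEL, 2 to 5 higher. The cause of these shifts was not tested. A term for the block of library numbers changed no call count of members under CpG (1 higher, 2 lower). No paired analysis was possible because replicate numbers were given in accession order and the labels tie no libraries of different groups together.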

Other observations

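Genes that carry cargo from the ER to the Golgi also differed between CpG and naive cells, where stimulus, culture and library series cannot be told apart. The counts are as fitted. Median-ratio scaling, which shifted the all-gene median by -0.31 in fl/+ and -0.55 in fl/- cells, is not given for this list. Of 34 tested, 25 rose and 2 fell in CpG against naive fl/+ cells (median log2 difference 0.47, beside 0.30 over all genes tested), where 43.0% and 21.0% of all genes did, and 30 rose and 2 fell in CpG against naive fl/- cells (median log2 difference 0.74, beside 0.56 over all genes tested), where 56.3% and 19.8% of all genes did. Lman1, a cargo receptor for glycoproteins, measured 52.9, 59.5, 51.3 and 52.3 TPM in CpG fl/+ libraries, against 21.9, 22.3 and 23.3 TPM in naive fl/+ libraries, and rose by 1.22 ± 0.11 (SE; limma, adjusted p = 1.61e-05). The coat subunit Copb1 rose by 1.31 ± 0.17 (adjusted p = 0.000137) and Sec22b, a fusion protein of ER-derived vesicles, by 1.27 ± 0.13 (adjusted p = 2.45e-05). In HEL against naive cells 3 of these 34 rose and 18 fell, where 9.92% and 38.1% of all genes did, with Sec16a at -0.68 ± 0.08 (adjusted p = 0.000164) and Tmed3, another cargo receptor, at 0.70 ± 0.08 (adjusted p = 8.81e-05).

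Fkbp11 was called in 7 of the 9 comparisons. It measured 16.6, 18.2, 25.5 and 24.1 TPM in CpG fl/- libraries, 11.5, 8.04, 6.82 and 5.86 TPM in CpG fl/+ libraries, 7.42, 8.58 and 8.19 TPM in anergic libraries, 4.00, 6.47, 7.49, 3.54 and 2.86 TPM in HEL Cre libraries, 11.8, 13.3, 9.50, 10.3 and 14.2 TPM in HEL libraries, and 19.6 to 30.4 TPM in all naive libraries. Every library stimulated with CpG in the fl/+ genotype was below every naive library, while the CpG fl/- libraries overlapped them.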
